A study of Mus musculus with 2 samples.

Results

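The platelet-derived growth factor (PDGF) system comprised 6 genes of the 32285 features measured: the ligand genes Pdgfa, Pdgfb, Pdgfc and Pdgfd and the receptor genes Pdgfra and Pdgfrb. They were taken by symbol, without use of their values, and followed through cell classes of the embryonic day 14.5 mouse pancreas. PDGFs are dimeric growth factors that bind paired receptor tyrosine kinases at the surface of mostly mesenchymal cells. PDGF-A and PDGF-C act mainly through the alpha receptor, PDGF-B through both receptors, and PDGF-D mainly through the beta receptor. PDGF-C and PDGF-D are secreted as latent proteins and become active when a protease removes their CUB domain. In many organs an epithelium makes PDGF-A while the adjoining mesenchyme carries the alpha receptor, and endothelial PDGF-B draws pericytes, the mural cells of small vessels, which carry the beta receptor.

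The study addressed what fibroblast growth factor 9 does in pancreas development. The Null library held 3 Fgf9 -/- pancreata from 3 litters in 1 pool, from the Fgf9 LacZ line, whose Fgf9 locus carries an inserted LacZ cassette. The Control library held 8 pancreata from 3 litters in 1 pool, of Fgf9 +/+ and +/- littermates, so part of the Control pool was heterozygous. All mice were on the C57BL/6J background, and live cells, negative for the dye DAPI, were sorted without selection for a cell type and loaded on the 10x Genomics droplet system. With 1 pooled library per genotype there was no replicate, no test between genotypes was possible, and every interval below covers counting error only.

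The deposited matrices held 271129120 unique molecular identifiers (UMIs, each marking 1 captured RNA molecule) in 16708 Null barcodes and 339959625 in 30209 Control barcodes, with 180 barcodes in both. After filters and removal of called doublets, 8830 Null cells (median 24149 UMIs) and 25876 Control cells (median 4050 UMIs) were kept. Cell classes were built from marker genes that exclude the 6 PDGF genes; each is X-like by its markers (acinar-like and so on), shortened below to the class name. Barcodes with no class, mostly shallow, numbered 563 in Null (6.38%) and 11619 in Control (44.9%). Levels are CPM, the UMIs of a gene scaled to the summed UMIs of a class, without haemoglobin and mitochondrially encoded genes. In mesothelial cells, the class with most Fgf9, the targeted gene stood at 37.9 CPM in Null and 120 CPM in Control. UMIs of Fgf9 remained in Null, and which part of the transcript they came from is not known here, so the level checks the labels by its direction only. The class markers stood higher in their own class than in other named cells for every marker in both libraries, with 1 exception among the 8 leukocyte markers. Clusters were named by these same markers, so this is not an independent check of the classes. The 8 acinar markers, an index of free RNA in other cells, were lower in Null than in Control in every other named class, for example 1253 against 2672 CPM summed in mesenchymal cells; the part of free RNA in the differences below was not tested.

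**Figure D1:**
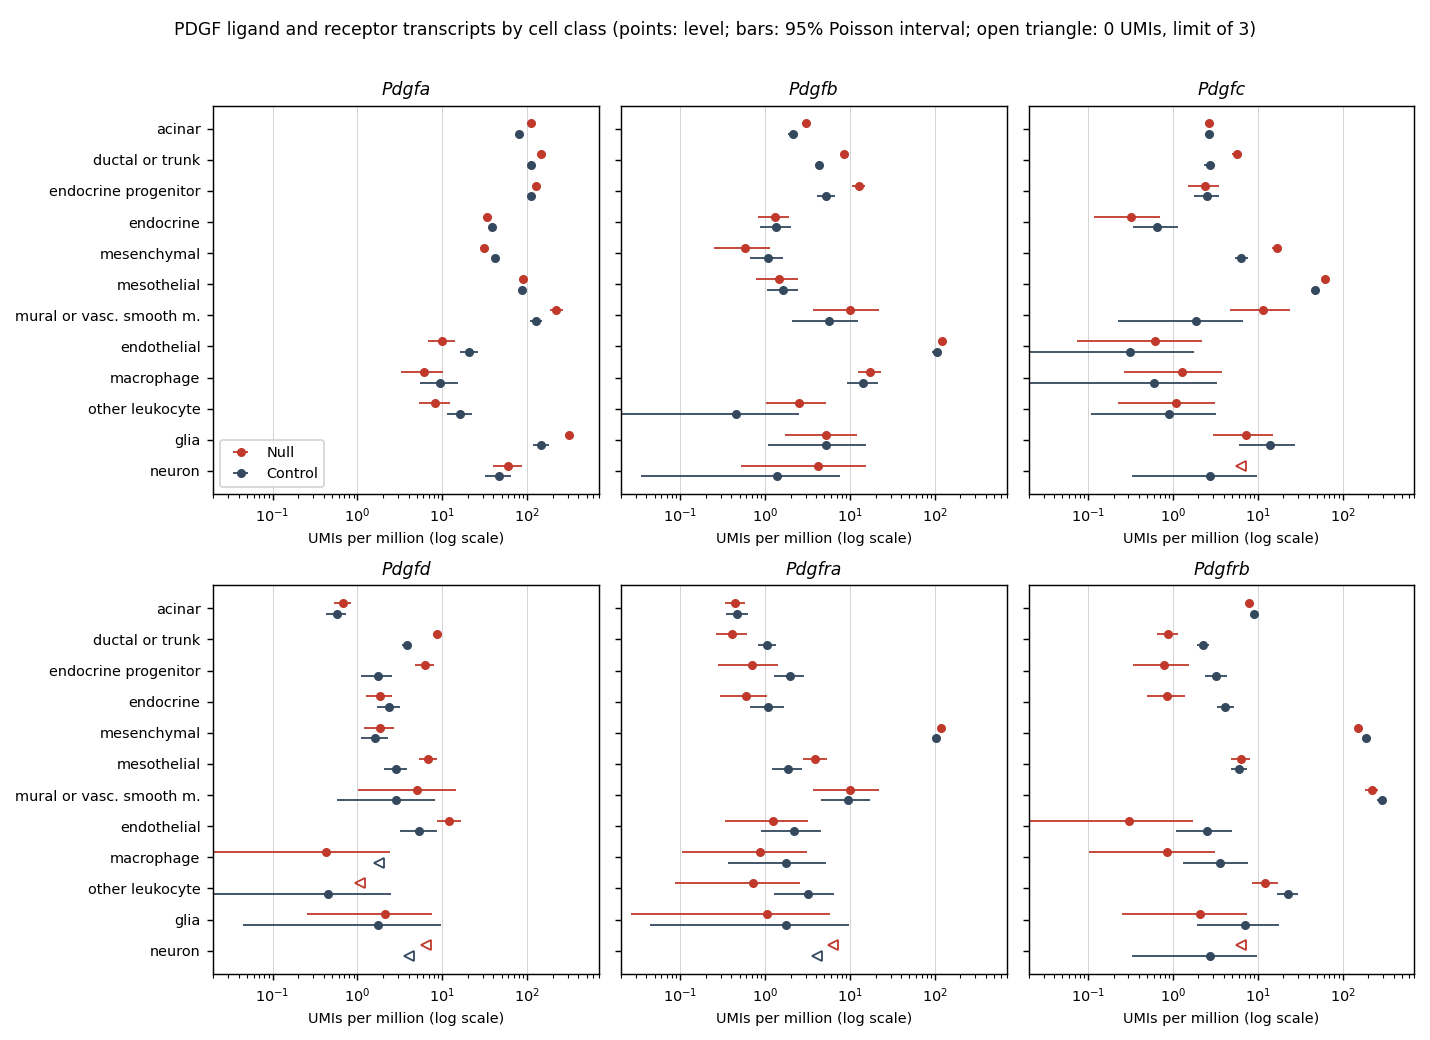
Level of each PDGF ligand and receptor transcript in CPM (log axis) in 12 cell classes, Null above Control in each row; points are levels, bars exact 95% Poisson intervals, and open triangles mark 0 UMIs at the level of 3 counts. Pdgfra stood highest in mesenchymal cells at 117 CPM in Null and 103 CPM in Control, Pdgfb in endothelial cells at 122 and 104 CPM, and Pdgfc in mesothelial cells at 62.8 and 46.6 CPM.

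The ligands differed in their spread over the classes, with some classes shared. Pdgfa, the ligand of the alpha receptor, was spread over the epithelium, the mesothelium, mural cells and glia. Pdgfb had its highest level in endothelial cells, although the more numerous ductal and acinar cells held more of its UMIs, Pdgfc was led by the mesothelium, and Pdgfd was found at low levels in ductal and endothelial cells. Receptor transcripts had their highest levels in the stroma: Pdgfra in mesenchymal cells, and Pdgfrb in mesenchymal and mural cells. The more numerous acinar cells, at a low level, still held 28.2% of the Pdgfrb UMIs of named cells in Null and 14.9% in Control. These were 938 UMIs in Null and 941 UMIs in Control, against 133 and 307 UMIs in mural cells.

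Pdgfa (ENSMUSG00000025856, GRCm38 chr5:138976014-138997370, minus strand) was the ligand with the widest spread. In acinar cells, which make digestive enzymes, it stood at 111 CPM in Null (95% interval 109 to 113) and 80.1 CPM in Control (78.4 to 81.8), from 2451 and 3187 cells. In ductal or trunk cells, the bipotent core of the epithelium and its ductal progeny, it stood at 147 CPM in Null and 112 CPM in Control. Endocrine progenitors, marked by Neurog3, had 125 CPM in Null and 110 CPM in Control, whereas hormone-making endocrine cells had 33.8 CPM in Null and 38.3 CPM in Control. Acinar and ductal cells together thus held most of the Pdgfa UMIs of named cells, with an acinar share of 52.6% in Null and 39.8% in Control and a ductal share of 32.7% in Null and 37.6% in Control. These shares follow the number and depth of cells in each class as well as the level per cell.

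Outside the epithelium, glia had the highest Pdgfa level, 313 CPM in Null (94 cells) and 145 CPM in Control (115 cells). Mural or vascular smooth muscle cells followed with 221 CPM in Null (31 cells) and 128 CPM in Control (88 cells). Mesothelial cells, the sheet that covers the organ, stood at 88.5 CPM in Null and 87.0 CPM in Control. The lowest levels were in macrophages, at 6.02 CPM in Null and 9.47 CPM in Control. Barcodes with no class stood at 66.3 CPM in Null and 59.8 CPM in Control, and the levels in mesenchymal, endocrine, endothelial and immune cells lay below these.

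The Null level of Pdgfa exceeded the Control level in the exocrine epithelium. The log2 ratio of Null over Control was 0.47 (0.43 to 0.51) in acinar cells, a 1.38-fold difference, and 0.39 (0.35 to 0.44) in ductal or trunk cells, a 1.31-fold difference. It was above 0 in 6 of 6 acinar clusters and in 5 of 5 ductal clusters with at least 20 cells of each library, and every one of these intervals excluded 0. Acinar clusters ranged from 86.0 to 132 CPM in Null and from 66.3 to 102 CPM in Control, and the log2 ratios within them from 0.37 to 0.52. These clusters include ones led by histone genes, by mitosis genes such as Aurka and by digestive enzyme genes such as Cela2a. After thinning of every cell to 2000 UMIs, 20.03% of Null acinar cells and 14.8% of Control acinar cells carried a Pdgfa UMI.

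**Figure D2:**
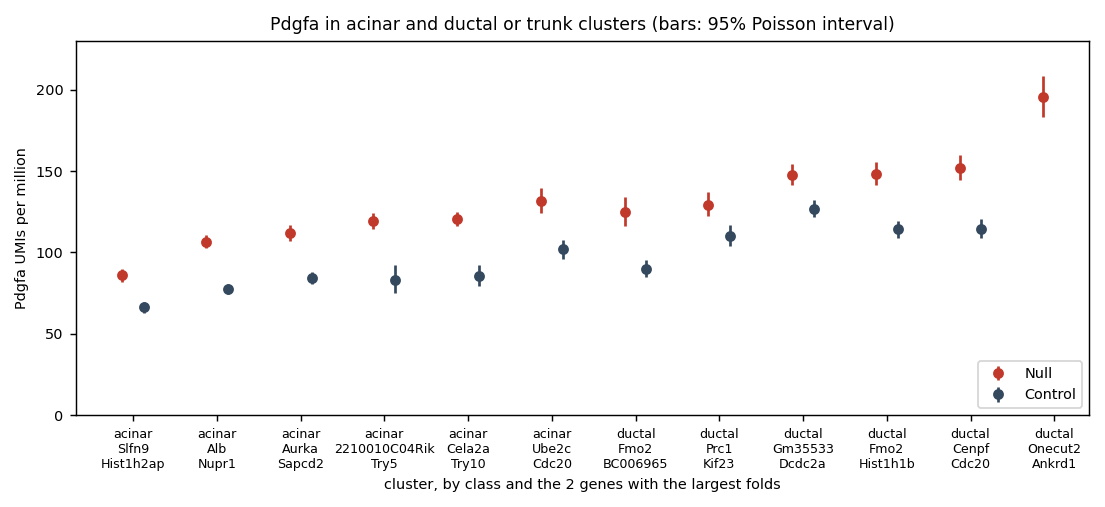
Pdgfa in CPM (linear axis from 0) in each acinar and ductal or trunk cluster, Null left of Control; clusters are named by the 2 genes with the largest folds, and bars are exact 95% Poisson intervals. The Null point lies above the Control point in 6 of 6 acinar and 5 of 5 ductal clusters that hold both libraries; the cluster led by Onecut2, almost entirely of Null cells, stands highest at 195 CPM.

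In other classes the Pdgfa ratio took other values. It was 0.20 (0.09 to 0.30) in endocrine progenitors, 0.03 (-0.10 to 0.15) in mesothelial cells, and -0.18 (-0.34 to -0.02) in endocrine cells. In mesenchymal cells Pdgfa stood at 30.9 CPM in Null and 42.2 CPM in Control, a log2 ratio of -0.45. In endothelial cells it stood at 9.87 CPM in Null and 20.9 CPM in Control, a log2 ratio of -1.08 (-1.74 to -0.45). After thinning the endothelial ratio was -3.14, but only 1 of 148 Null cells and 14 of 235 Control cells then carried a Pdgfa UMI. In glia the ratio was 1.11 (0.75 to 1.47), past 2-fold, but 0.89 among barcodes of at least 5000 UMIs, and median depth was 10461 UMIs in Null glia and 2264 UMIs in Control glia. The mural ratio of 0.79 (0.43 to 1.15) rested on 133 UMIs in Null and 136 UMIs in Control, and was 0.10 when the PDGF genes were allowed among the clustering genes and 0.14 when called doublets were kept. The 6 smooth muscle markers summed to 5654 CPM in Null and 1959 CPM in Control mural cells, and their part in this ratio was not tested. GENCODE places 6330403L08Rik across part of Pdgfa, and the sources used here do not say whether counting used strand, so reads in the overlap cannot be told apart; the same holds for Pdgfb (Mir7213, Gm41361), Pdgfc (Gm16000), Pdgfd (Ddi1) and Pdgfra (Gm42802, Gm42803, Mir7025).

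Pdgfb (ENSMUSG00000000489, chr15:79995874-80014977, minus strand), the ligand of both receptors, was at 122 CPM in Null endothelial cells (183 cells) and 104 CPM in Control endothelial cells (290 cells). The endothelial log2 ratio was 0.22 (0.01 to 0.44), but 0.90 after thinning and 0.50 with called doublets kept. Endothelial cells held 27.0% of the Pdgfb UMIs of named cells in Null and 31.9% in Control, ductal or trunk cells 32.4% in Null and 29.4% in Control, and acinar cells 24.6% in Null and 21.3% in Control. Macrophages came next with 17.2 CPM in Null and 14.2 CPM in Control, at intervals that overlap. In endocrine progenitors Pdgfb stood at 12.8 CPM in Null and 5.27 CPM in Control, and in ductal or trunk cells at 8.49 CPM in Null and 4.34 CPM in Control. Mesenchymal and mesothelial cells were near the floor, with 8 and 14 UMIs in Null and 21 and 23 UMIs in Control.

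The endocrine progenitor signal of Pdgfb lay in 1 cluster, led by Grin3a and Neurog3, with 255 Null and 405 Control cells. There it reached 23.1 CPM in Null and 11.7 CPM in Control, and Pdgfd reached 12.0 CPM in Null and 3.96 CPM in Control. The log2 ratios in this cluster were 0.98 (0.53 to 1.44) for Pdgfb, 1.60 (0.87 to 2.39) for Pdgfd and 0.12 (-0.02 to 0.25) for Pdgfa. In the other endocrine progenitor clusters with at least 20 cells of each library, led by Lhx1 and by Btbd17 with Neurog3, Pdgfb was at most 1.6 CPM in Null and 1.2 CPM in Control, and Pdgfd had 0 UMIs in Null. Pdgfa was spread more evenly, at 178 CPM in Null and 164 CPM in Control in the Grin3a-led cluster and 48.2 CPM in Null and 46.7 CPM in Control in the Lhx1-led one.

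Pdgfc (ENSMUSG00000028019, chr3:81036416-81214040, plus strand) and Pdgfd (ENSMUSG00000032006, chr9:6168584-6378850, plus strand) encode the latent, CUB-domain ligands. Both were past 2-fold higher in Null ductal or trunk cells, and their proximal promoters are shown because these were the 2 ligands called there. The sequences are the 250 bases before the RefSeq start in GRCm38.p6, 5′ to 3′ on the gene's strand, at chr3:81036166-81036415 for Pdgfc and chr9:6168236-6168485 for Pdgfd. Capitals mark matches to any of 4 motifs searched on both strands, the GC box GGGCGG, the TATA box TATAAA, the TEAD-type motif GGAATG and the AP-1-type motif TGANTCA.
Pdgfc: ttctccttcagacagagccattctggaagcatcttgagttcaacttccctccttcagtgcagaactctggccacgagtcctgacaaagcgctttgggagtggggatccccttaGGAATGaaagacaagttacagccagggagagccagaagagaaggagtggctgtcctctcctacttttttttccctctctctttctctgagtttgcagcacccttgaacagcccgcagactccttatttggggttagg
Pdgfd: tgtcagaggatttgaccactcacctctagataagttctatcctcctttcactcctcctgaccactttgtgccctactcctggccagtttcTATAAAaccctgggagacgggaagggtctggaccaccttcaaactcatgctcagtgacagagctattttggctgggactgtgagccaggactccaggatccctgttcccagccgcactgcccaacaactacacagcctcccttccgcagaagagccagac
The Pdgfc window held 1 TEAD-type match, starting 137 bases before the start, and the Pdgfd window held 1 TATAAA, starting 160 bases before it. Of 32851 windows of the same length in the table, 12.6% held the TEAD-type motif and 12.4% held TATAAA. Neither window held GGGCGG, present in 32.7% of all windows, or TGANTCA, present in 6.75%. The matches do not overlap each other, and they describe letters, not bound sites.

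Pdgfc was highest in mesothelial cells, at 62.8 CPM in Null (610 UMIs) and 46.6 CPM in Control (654 UMIs), a log2 ratio of 0.43 (0.27 to 0.59). Within the class its level and its direction varied by cluster. In the cluster led by Aldh1a2 and Cav1 it stood at 67.1 CPM in Null and 48.6 CPM in Control, and in the cluster led by Oprk1 and Upk3b at 41.0 CPM in Null and 66.1 CPM in Control. A cluster of 79 Null cells and no Control cell, led by Angptl7, had 127 CPM (109 to 147), above every other mesothelial cluster. Angptl7 and Adamts19 were among the leading genes both of this cluster and of a Null mesenchymal cluster led by Robo2. Without the clusters drawn over 90% from 1 library the mesothelial log2 ratio was 0.16 (-0.02 to 0.34). The 8 mesenchymal markers summed to 7492 CPM in Null and 2406 CPM in Control mesothelial cells, and their part in the Pdgfc ratio was not tested.

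In mesenchymal cells, the connective tissue around the epithelium, Pdgfc stood at 16.9 CPM in Null (232 UMIs) and 6.41 CPM in Control (126 UMIs). The log2 ratio was 1.40 (1.08 to 1.73), a 2.64-fold difference, and 1.45 (0.87 to 2.06) without the clusters of 1 library. The mesenchymal clusters of the libraries were largely different ones. Null cells lay mainly in clusters led by AY036118 and Lum (215 cells), Sparcl1 and Bgn (212 cells), Lum and Mgp (183 cells), Ebf1 and Gucy1b1 (128 cells) and Stmn2 and Mgp (95 cells). Control cells lay mainly in clusters led by Aspn and Htra1 (399 cells), Slit2 and Ebf1 (271 cells), Aspn and Prrx1 (240 cells) and Ebf1 and Gucy1b1 (239 cells). Pdgfc was 26.1 CPM in the Null cells of the Lum and Mgp cluster, 23.8 CPM in the Stmn2 and Mgp cluster and 76.8 CPM in a Null cluster of 35 cells led by Robo2 and Angptl7, whereas Control levels reached at most 11.3 CPM in a cluster. Of the clusters with at least 20 cells of each library, 2 had at least 20 Pdgfc UMIs. In the Ebf1 and Gucy1b1 cluster it was 8.74 CPM in Null and 6.45 CPM in Control, at intervals that overlap. In the Lum and Mgp cluster it was 26.1 CPM in Null (74 UMIs) and 5.66 CPM in Control (2 UMIs in 38 cells). The log2 ratio there was 2.21 (0.30 to 5.28). The 8 mesothelial markers summed to 29.4 CPM in Null and 32.7 CPM in Control mesenchymal cells, against 1043 CPM in Null and 931 CPM in Control mesothelial cells.

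Pdgfd was the scarcest ligand in UMIs, with 793 in Null and 487 in Control named cells, of which ductal or trunk cells held 60.5% in Null and 54.6% in Control. In ductal or trunk cells it stood at 8.60 CPM in Null and 3.796 CPM in Control, a log2 ratio of 1.18 (0.96 to 1.40), and it was higher in Null in 5 of 5 clusters, with log2 ratios of 0.55 to 1.11. Endothelial cells had 12.0 CPM in Null and 5.38 CPM in Control, from 39 and 17 UMIs, and mesothelial cells 6.79 CPM in Null and 2.85 CPM in Control. Acinar cells were low in both libraries, with 0.671 CPM in Null and 0.568 CPM in Control. Macrophages, other leukocytes, glia and neurons held at most 2 UMIs each in a library.

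Ductal or trunk cells showed the ligands at their highest in a cluster led by Onecut2 and Ankrd1, with 222 Null cells and 10 Control cells. Its Null cells had 195 CPM Pdgfa, 21.1 CPM Pdgfb, 18.1 CPM Pdgfc and 23.2 CPM Pdgfd. In Null cells of the other ductal clusters these levels were at most 152 CPM for Pdgfa, 8.60 CPM for Pdgfb, 6.04 CPM for Pdgfc and 9.22 CPM for Pdgfd. Without the Onecut2-led cluster the ductal log2 ratios were 0.35 for Pdgfa, 0.76 for Pdgfb, 0.72 for Pdgfc and 0.93 for Pdgfd, so Pdgfc and Pdgfd were then under 2-fold, with intervals still above 0. In the 5 clusters of both libraries Pdgfb and Pdgfc were likewise higher in Null in 5 of 5, with intervals above 0 in 4 clusters for Pdgfb and 3 for Pdgfc.

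Pdgfra (ENSMUSG00000029231, chr5:75152292-75198215, plus strand), the alpha receptor, stood far higher in mesenchymal cells than in any other class with at least 50 cells in a library; they held 91.5% of its UMIs in Null and 76.8% in Control named cells. A Control cluster of 345 cells, highest in mesenchymal markers but with the mural marker Rgs5 and no mesenchymal marker among its 10 leading genes, was set aside from the class and held a further 14.6% at 118 CPM. Pdgfra stood at 117 CPM in Null (1601 UMIs in 976 cells) and 103 CPM in Control (2017 UMIs in 2239 cells). The log2 ratio was 0.19 (0.09 to 0.28); it was -0.06 when the CPM of single cells were averaged in place of sums, so no direction can be given. Mural cells had 9.97 CPM in Null and 9.39 CPM in Control, from 6 and 10 UMIs. Epithelial classes stood between 0.412 and 0.694 CPM in Null and between 0.471 and 1.95 CPM in Control, below the 9.94 CPM of Null and 7.32 CPM of Control barcodes with no class.

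Pdgfrb (ENSMUSG00000024620, chr18:61045150-61085061, plus strand), the beta receptor, was highest in mural or vascular smooth muscle cells, with 221 CPM in Null (31 cells) and 288 CPM in Control (88 cells), a log2 ratio of -0.38 (-0.69 to -0.09). With 50 principal components in the clustering the mural ratio was 0.19, so no direction can be given. Mesenchymal cells had 152 CPM in Null and 189 CPM in Control, a log2 ratio of -0.31 (-0.39 to -0.24). That ratio lay between -0.66 and -0.24 under the alternatives run. Of the 5 mesenchymal clusters with at least 20 cells of each library, 3 had an interval below 0. In the other 2 Pdgfrb was higher in Null, with intervals that hold 0. These were the Slit2 and Ebf1 cluster, at 440 CPM in Null (31 UMIs) and 329 CPM in Control (246 UMIs), a log2 ratio of 0.42 (-0.17 to 0.96), and the Lum and Mgp cluster, at 0.07 (-0.53 to 0.73). Named cells as a whole had 14.0 CPM in Null and 24.9 CPM in Control, a pooled value that also follows how many stromal cells each library held.

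The balance of the receptors set stromal clusters apart. Pdgfra made up 43.4% (41.8 to 45.1) of receptor UMIs in Null and 35.2% (33.9 to 36.4) in Control mesenchymal cells, and 4.32% in Null and 3.15% in Control mural cells. The Null cluster led by Robo2 and Angptl7 had 287 CPM Pdgfra and 39.2 CPM Pdgfrb, and the Lum and Mgp cluster 114 CPM Pdgfra and 74.2 CPM Pdgfrb in Null, against 113 CPM Pdgfra and 70.7 CPM Pdgfrb in Control. The Sparcl1 and Bgn cluster of Null cells leaned the other way, with 108 CPM Pdgfra and 218 CPM Pdgfrb. In the Ebf1 and Gucy1b1 cluster Pdgfrb was 189 CPM in Null and 226 CPM in Control, a log2 ratio of -0.26 (-0.42 to -0.11), and Pdgfra was 95.4 CPM in Null and 86.8 CPM in Control, a log2 ratio of 0.14 (-0.10 to 0.38).

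**Figure D3:**
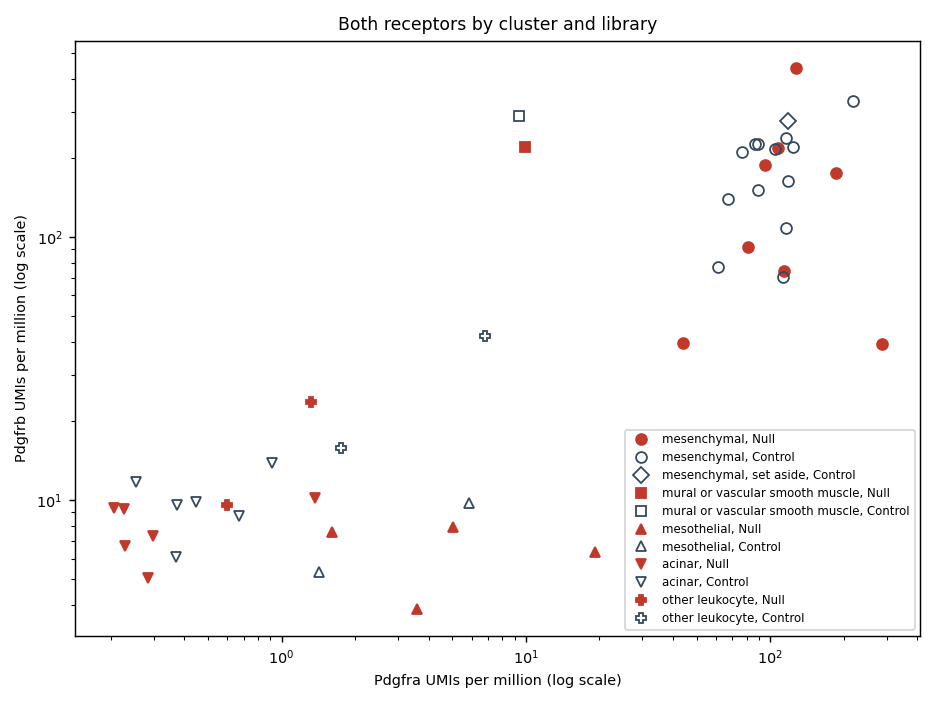
Pdgfra (horizontal) and Pdgfrb (vertical) in CPM, both on log axes, by cluster and library. Clusters are mesenchymal (with the one set aside), mural, mesothelial, acinar and other leukocyte, drawn where a library has at least 20 cells. Filled symbols are Null and open symbols Control, and clusters with 0 UMIs of either gene are not drawn. Mesenchymal clusters lie at the upper right, mural cells at 9.97 CPM Pdgfra and 221 CPM Pdgfrb in Null and 9.39 and 288 CPM in Control, and acinar clusters at the lower left with more Pdgfrb than Pdgfra.

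Detection of both receptor transcripts in the same cell depended on depth. After thinning to 2000 UMIs, 3.92% of Null mesenchymal cells (2.70 to 5.49, 32 of 816) and 4.16% of Control mesenchymal cells (3.36 to 5.09, 90 of 2162) carried both, and these intervals overlap. Pdgfra alone was found in 15.8% of Null and 13.04% of Control cells, and Pdgfrb alone in 17.03% (14.5 to 19.8) of Null and 23.4% (21.6 to 25.2) of Control cells. Without thinning, both were found in 41.5% of Null and 32.3% of Control mesenchymal cells, at median depths of 15269 and 8778 UMIs. Of mural cells, thinned, 0 of 31 Null and 0 of 88 Control cells carried UMIs of both. At this thinned depth the exact Clopper-Pearson intervals of these shares reach up to 11.2% in Null and 4.11% in Control. Pdgfrb alone was found in 41.9% of Null and 45.5% of Control mural cells, thinned. Without thinning, 12.9% of Null mural cells (4 of 31) and 11.4% of Control mural cells (10 of 88) carried both. In ductal or trunk cells, taken as a background for stromal receptors, the thinned share with Pdgfrb alone was 0.206% in Null and 0.516% in Control.

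**Figure D4:**
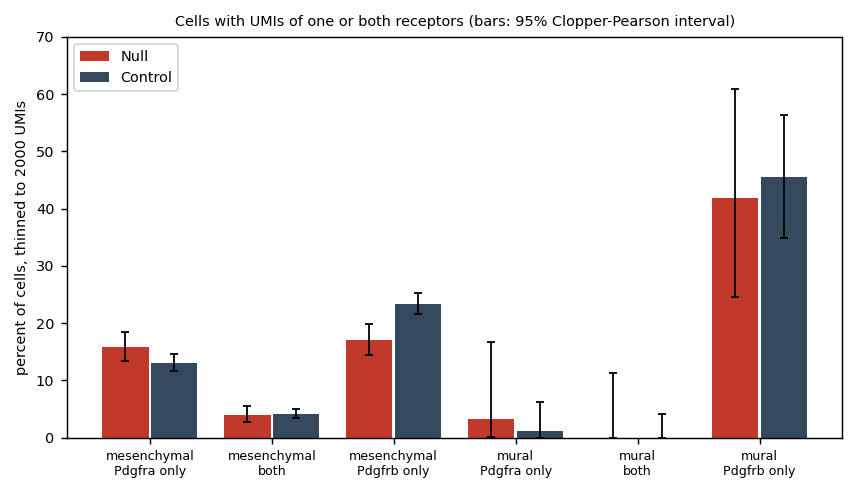
Percent of mesenchymal and mural cells with UMIs of Pdgfra only, of both receptors or of Pdgfrb only after thinning to 2000 UMIs, Null left of Control; bars start at 0 and whiskers are exact 95% Clopper-Pearson intervals. At this depth 3.92% of Null and 4.16% of Control mesenchymal cells show both, and 41.9% of Null and 45.5% of Control mural cells show Pdgfrb only; more cells show both without thinning.

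Acinar cells carried Pdgfrb at a low level that exceeded that of the other epithelial classes. It stood at 7.87 CPM in Null (938 UMIs) and 9.05 CPM in Control (941 UMIs), against 0.878 CPM in Null and 2.27 CPM in Control ductal or trunk cells. Barcodes with no class stood above the acinar level, at 9.94 CPM in Null (9 UMIs) and 12.7 CPM in Control (263 UMIs). A Pdgfrb UMI was found in 27.7% of Null and 23.8% of Control acinar cells, at median depths of 48036 and 32096 UMIs, and in 2.33% of Null and 4.001% of Control ductal cells, at 28110 and 19703 UMIs. Thinned, the shares were 1.80% (1.31 to 2.41) of Null and 1.79% (1.36 to 2.31) of Control acinar cells. Every one of the 6 acinar clusters had it, at 5.06 to 10.2 CPM in Null and 6.07 to 13.9 CPM in Control. Pdgfra made up 5.35% (4.03 to 6.94) of acinar receptor UMIs in Null and 4.95% (3.68 to 6.49) in Control, far under the mesenchymal share and under the 31.9% in Null and 31.8% in Control ductal cells. The mural shares, 4.32% in Null and 3.15% in Control, were close to the acinar ones. Other leukocytes had 5.56% in Null and 12.3% in Control. The 8 mesenchymal markers, all detected, summed to 36.6 CPM in Null and 42.3 CPM in Control acinar cells, and to 31.7 CPM in Null and 53.9 CPM in Control ductal cells; their part in the acinar level was not tested. The 8 mural markers summed to 14.6 CPM in Null and 13.8 CPM in Control acinar cells, and to 25.8 CPM in Null and 26.7 CPM in Control ductal cells. Pdgfrb had no overlapping gene in the annotation. The acinar log2 ratio of Null over Control was -0.20 (-0.33 to -0.07), and 0.0074 after thinning.

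Other leukocytes also held Pdgfrb, at 12.3 CPM in Null and 22.6 CPM in Control. Most of it lay in a cluster led by Cpa3, Cma1 and Hdc, genes of mast cells and basophils, with 23.7 CPM (14.0 to 37.4) in 31 Null cells and 42.2 CPM (28.7 to 59.9) in 44 Control cells. Pdgfra there had 1 UMI in Null and 5 UMIs in Control. This cluster was named after its values were seen.

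**Figure D5:**
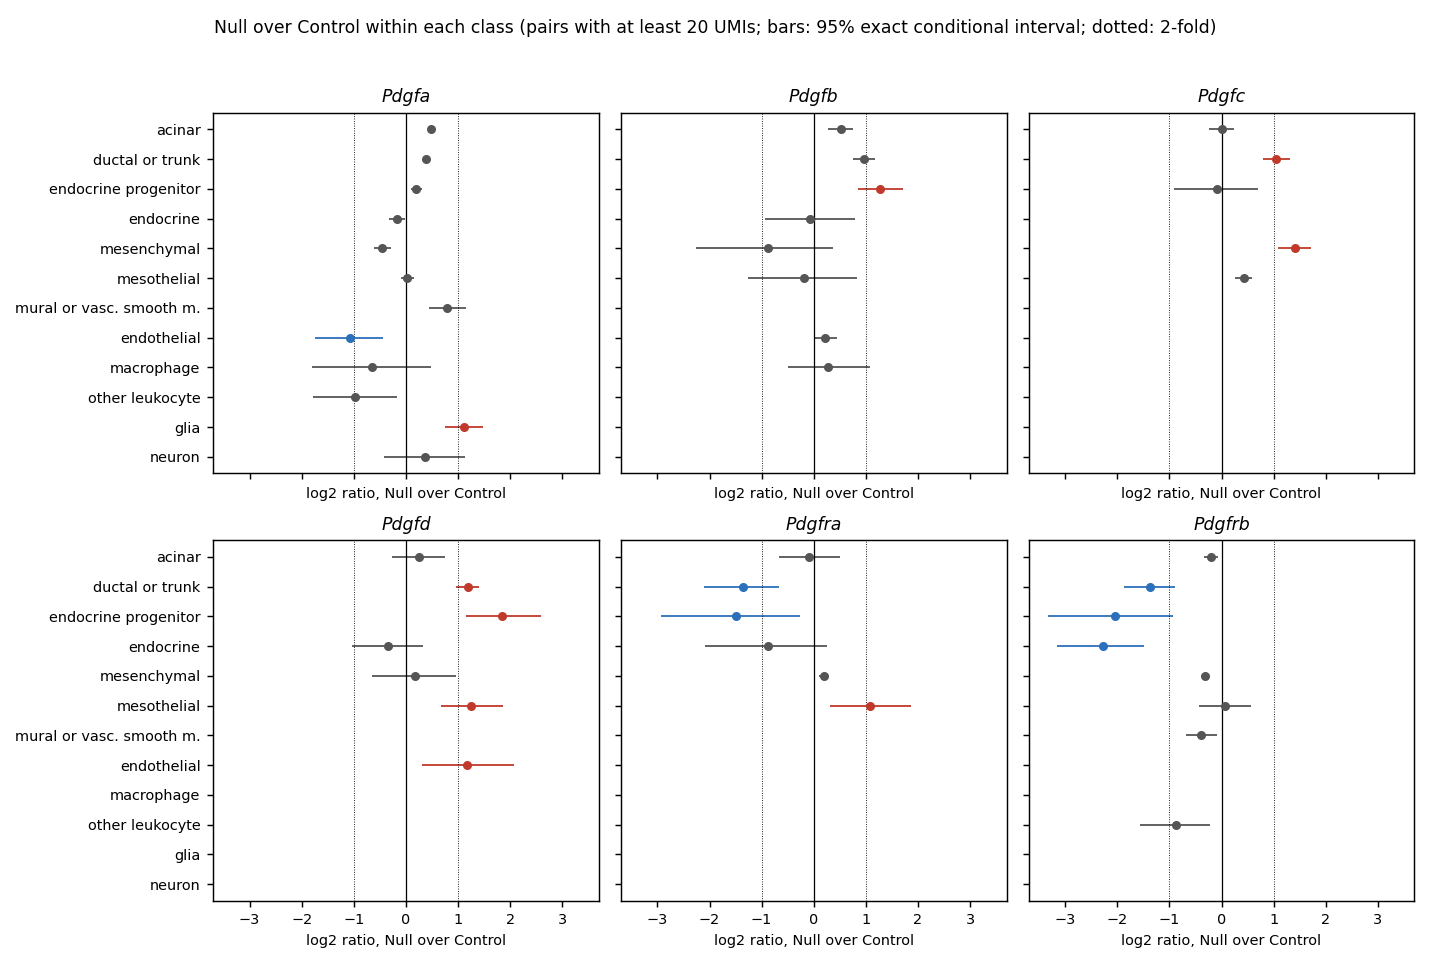
Log2 ratio of Null over Control for each PDGF gene in each class (pairs with at least 20 UMIs over both libraries); bars are exact conditional 95% intervals, dotted lines mark 2-fold, and colour marks pairs past it. Of 46 measured pairs, 9 lie at or above 2-fold higher in Null and 6 at or below 2-fold lower.

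Across the 12 classes, 46 of the 72 pairs of gene and class had at least 20 UMIs over both libraries, and 26 were too scarce. At least 2-fold higher in Null were 9 pairs: Pdgfc and Pdgfd in ductal or trunk cells, Pdgfb and Pdgfd in endocrine progenitors, Pdgfc in mesenchymal cells, Pdgfd and Pdgfra in mesothelial cells, Pdgfd in endothelial cells and Pdgfa in glia. The same bound was passed upward by 2.74% of 16293 genes in ductal or trunk cells, 2.21% of 13784 in endocrine progenitors, 4.02% of 14519 in mesenchymal cells, 6.24% of 14041 in mesothelial cells, 2.4% of 10705 in endothelial cells and 6.98% of 7975 in glia. At least 2-fold lower in Null were 6 pairs: Pdgfra and Pdgfrb in ductal or trunk cells and in endocrine progenitors, Pdgfrb in endocrine cells and Pdgfa in endothelial cells. The downward background was 2.13%, 2.22%, 4.37% and 2.93% of genes in these classes, in that order. The counts of 0 in 1 direction stood beside 1.1% of genes higher in endocrine cells, 6.3% lower in mesenchymal cells, 5.56% lower in mesothelial cells and 3.65% lower in glia. No pair passed 2-fold in acinar cells, where 1.96% of 16449 genes were higher and 2.69% lower, nor in mural cells (4.69% higher, 4.38% lower), macrophages (2.33% higher, 4.63% lower), other leukocytes (3.32% higher, 4.32% lower) or neurons (4.41% higher, 3.16% lower). After thinning, 5 pairs were past 2-fold higher and 1 lower. The minimum of 20 UMIs then applied to the thinned counts, so pairs that fell under it were not counted. For example, a Pdgfrb UMI was found in 1 Null and 4 Control endocrine cells, thinned. Pdgfd in endocrine progenitors, at a log2 ratio of 1.85, was 0.72 with the PDGF genes among the clustering genes. The median log2 ratio over all genes measured lay between -0.03 and 0.14 in every class.

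The lower receptor pairs all concern epithelial levels below those of barcodes with no class. Those barcodes are a mixed set and not a measured background. They include a cluster that scored highest for mesenchymal markers, with 16.7 CPM of each receptor over both libraries. Pdgfrb in endocrine cells was 0.860 CPM in Null and 4.17 CPM in Control, from 16 and 77 UMIs, against 9.94 CPM in Null and 12.7 CPM in Control barcodes with no class. In those endocrine cells the 8 acinar markers were 8 of 8 lower in Null, at 1152 CPM in Null and 2090 CPM in Control summed, and 7 of 8 mesenchymal markers were lower, at 108 CPM in Null and 154 CPM in Control; the part of this in the result was not tested. Pdgfra in mesothelial cells was 3.91 CPM in Null and 1.85 CPM in Control, from 38 and 26 UMIs. It went with mesenchymal markers in that class, 7 of 8 of them higher in Null. Summed, these 8 markers stood at 7492 CPM in Null and 2406 CPM in Control mesothelial cells. In mesenchymal cells they summed to 8217 CPM in Null and 5852 CPM in Control, so the Null mesothelial sum lay above the Control mesenchymal one. The Pdgfra log2 ratio of 1.08 in mesothelial cells was 0.23 when called doublets were kept.

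The pathway around the ligands and receptors was read from lists of related genes. Of 10 genes for ligand activation and binding, all 10 were measured in mesothelial cells, where 3 were at least 2-fold higher in Null and 1 lower; the list's median log2 ratio was 0.90, beside -0.02 for all genes, of which 6.24% were higher and 5.56% lower. The mesenchymal markers, 7 of 8 higher in Null in that class (7492 CPM in Null and 2406 CPM in Control summed), moved with this list, and their part in it was not tested. Pcsk6, a proprotein convertase, stood at 14.7 CPM in Null and 5.56 CPM in Control, Nrp1, a co-receptor, at 50.03 CPM in Null and 21.8 CPM in Control, and Pdgfrl, a receptor-like gene without a kinase, at 9.37 CPM in Null and 3.14 CPM in Control. St14, the membrane serine protease matriptase, was at 2.68 CPM in Null and 6.06 CPM in Control, an epithelial transcript found at 32.2 CPM in Null and 31.5 CPM in Control acinar cells. In mesenchymal cells St14 was likewise lower, 2.19 CPM in Null and 6.31 CPM in Control, while Plat, the tissue plasminogen activator that cleaves PDGF-C, was 63.4 CPM in Null and 43.6 CPM in Control, a log2 ratio of 0.54. Of the 22 genes of receptor-proximal signalling, none was past 2-fold in acinar, ductal, endocrine progenitor, endocrine, mesenchymal or mesothelial cells, and their mesenchymal median was 0.08, beside -0.01 for all genes. In the smaller mural class 2 of the 21 measured were higher in Null and 1 lower, beside 4.69% and 4.38% of all genes; the lower one, the adaptor gene Shc1, had 8 UMIs in Null and 33 UMIs in Control. Of the same list 1 of 22 was lower in other leukocytes, 1 of 21 higher in glia, and 1 of 17 higher and 1 lower in neurons.

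Relatives of the receptors and ligands also passed 2-fold in several classes. The other class III receptor kinases and their ligands, a list of 7 genes of which 6 were measured, had 2 at least 2-fold higher in Null ductal or trunk cells: Csf1, the macrophage growth factor, at 4.03 CPM in Null and 1.44 CPM in Control, and its receptor gene Csf1r at 1.43 CPM in Null and 0.671 CPM in Control. Kit, a receptor gene close to Pdgfra on chromosome 5, stood at 18.2 CPM in Null and 7.41 CPM in Control mesothelial cells, and Kitl, its ligand gene, at 19.3 CPM in Null and 8.96 CPM in Control endocrine progenitors. Of 8 VEGF relatives and their receptors, 7 were measured in mesothelial cells, with 3 at least 2-fold higher in Null and 0 lower, beside 6.24% and 5.56% of all genes in that class and the same higher mesenchymal markers. Kdr, the main VEGF receptor and another neighbour of Pdgfra, stood there at 89.9 CPM in Null and 22.2 CPM in Control, and in mesenchymal cells at 10.2 CPM in Null and 1.27 CPM in Control. Of the 9 endothelial markers, which include Kdr, 7 were lower in Null than in Control in each of these classes. Pgf, a VEGF family ligand, was at 30.5 CPM in Null and 8.98 CPM in Control mesothelial cells.

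The class pattern of each PDGF gene was compared with that of 15358 other genes, as Pearson's r of log2(CPM + 1). It was taken over 22 points, the 11 classes with at least 50 cells in both libraries. Mural cells, 31 in Null, were left out. The points of a class share their cell type and those of a library its depth. The genes most like Pdgfra were Srpx2 (r = 0.98), Tcf21 (r = 0.96), itself a marker used for the mesenchymal class, and Rtl3 (r = 0.95). Pdgfrb was most like Rtl3, Col7a1 and the gene with the symbol a (r = 0.90 for each). Pdgfa was most like Sema3c (r = 0.94), Ptpn21 (r = 0.93) and Dag1 (r = 0.91), and Pdgfb most like Ets2 (r = 0.90), Pdlim5 (r = 0.86) and Pkig (r = 0.86). Pdgfc was most like Tnfrsf19 (r = 0.91), Chpt1 (r = 0.91) and Ecrg4 (r = 0.89), and Pdgfd most like Ctnna1 (r = 0.90), Actn4 (r = 0.89) and Map4k3 (r = 0.84). Among the PDGF genes themselves the receptors were most alike (r = 0.85), and Pdgfb and Pdgfrb least (r = -0.54). These values leave out mural cells, where Pdgfrb stood at 221 CPM in Null and 288 CPM in Control, and Pdgfra at 9.97 and 9.39 CPM.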

How the data were processed

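UMI counts were taken as deposited, whole numbers per gene and barcode that the authors made with Cell Ranger, per the file headers; the submitters' processing notes name bcl2fastq, Cell Ranger 6.1.1, Seurat 3.2.3 and the mm10 build. Barcodes were kept with at least 1000 UMIs, 300 genes and under 15% mitochondrially encoded UMIs. Scrublet in scanpy 1.11.5 was run per library on all barcodes and on those of at least 5000 UMIs, and calls of either run were removed: 574 Null (6.10%) and 1303 Control barcodes (4.79%). The libraries were not treated alike. On all barcodes Null took the automatic threshold of 0.189 (5.53% called). Control had no automatic threshold, and a set score of 0.25 was used (0.809% called). On barcodes of at least 5000 UMIs automatic thresholds called 3.81% in Null and 9.09% in Control. Both libraries were clustered together (2000 variable genes without the PDGF genes, 30 principal components, 15 neighbours, Leiden resolution 2, and 1.5 for stromal cells), with no batch integration. Clusters took the class of their highest markers; the thresholds for naming were chosen with the clusters in view, and a rebuilt class can differ from the study's own.

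Counts were summed per library and class and scaled to CPM. Levels carry exact Poisson, ratios exact conditional and shares exact Clopper-Pearson intervals, all at 95%; 3 counts serve as the floor for a count of 0. A gene and class pair needed 20 UMIs. Named genes were the 6 members in every class, and list genes with at least 100 UMIs in the class, a ratio past 2-fold and an interval excluding 0, at most 4 per list and class; Plat and Shc1 were named outside it, after their values were seen. The members and lists were chosen with earlier results of these data known. The interval code was tested on simulated data. Coordinates are from GENCODE vM21 (GRCm38); 4 of the 6 members are in the RefSeq promoter table, and Pdgfrb sequence is not shown.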

Additional observations from a re-analysis of the deposited data

Results flagged for a closer look

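Pdgfa stood on different sides of equality in classes of the same epithelium: the log2 ratio of Null over Control was 0.47 (0.43 to 0.51) in acinar cells and -0.18 (-0.34 to -0.02) in endocrine cells, a difference of 0.65. It was singled out because the counting intervals exclude 0 in opposite directions. With 1 library per genotype the difference was not tested, and after thinning to 2000 UMIs the endocrine ratio was 0.02.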

How the results depend on the processing

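For the 7 main ratios, 42 of 59 values under the alternatives stayed within the reported interval and 58 kept their sign; for the 39 others, 276 of 311 stayed and 288 kept their sign; of the 23 that turned, 17 belong to ratios whose reported interval holds 0. The exception in sign among the main ones was Pdgfra in mesenchymal cells, -0.060 as a mean over cells; it was 0.50 with doublets kept, 0.29 with 50 principal components and 0.30 with the PDGF genes among the variable genes. Pdgfrb in mesenchymal cells was -0.47 as a mean over cells, -0.50 thinned, -0.41 with the set-aside cluster, -0.66 without clusters of 1 library and -0.59 with 50 principal components. Pdgfc in mesothelial cells was 0.65, 0.84 and 0.16 as a mean over cells, thinned and without clusters of 1 library. Thinning gave 0.51 for Pdgfa in acinar cells, 0.94 for Pdgfd in ductal or trunk cells (0.93 without clusters of 1 library) and 0.90 for Pdgfb in endothelial cells (0.50 with doublets kept). The other 6 turned signs were for Pdgfrb after thinning in acinar (0.0074) and other leukocyte cells (0.10), for Pdgfrb in mural cells with 50 principal components (0.19), and for Pdgfa after thinning in endocrine progenitors (-0.017) and endocrine cells (0.017) and in endocrine progenitors with the PDGF genes among the variable genes (-0.0025). The cause of these shifts was not tested. Pairs past 2-fold numbered 5 higher and 1 lower after thinning, with the minimum of 20 UMIs applied to the thinned counts. They numbered 16 and 13 with no minimum of UMIs. Of the 6 lower pairs of the main count, 1 had at least 100 UMIs. Cells with both receptors, unthinned, were 41.5% in Null and 32.3% in Control. At 5000 UMIs per barcode the ligand activation list had 1 gene higher in mesenchymal and 0 lower in mesothelial cells, and with a minimum of 100 UMIs the VEGF list had 1 higher in mesenchymal cells. Leaving out clusters of 1 library and counting the set-aside cluster were chosen after seeing the data. No paired analysis was possible because each genotype had 1 pooled library. Depth limits the low pairs: 26 of 72 had under 20 UMIs.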
